A study of Mus musculus with 8 samples.

Results

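The genes described here are 10 transcripts that interferon-gamma induces in mouse cells, chosen by name: 8 GTPases, the enzyme gene Ido1 and the chemokine gene Cxcl9. The GTPases are the guanylate-binding proteins Gbp2, Gbp3, Gbp5 and Gbp7 and the immunity-related GTPases Irgm1, Irgm2, Igtp and Iigp1. All 10 were found among 54665 usable annotated genes, and all 10 had a mean of at least 1 TPM (a transcript level divided by transcript length and scaled to a fixed library total), the minimum for testing. The list was set beside genes known to answer type I interferon, to see whether the 2 kinds of response could be told apart.

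RNA was sequenced from the colon of BALB/cA mice of 2 genotypes, wild type and DCIR-/-. The latter lack the inhibitory C-type lectin receptor encoded by Clec4a2. There were 8 libraries in 8 groups of 1, which covered 4 stages in each genotype. The stages were untreated colon at steady state, colon on day 12 of DSS (dextran sulfate sodium, given to injure the epithelium), and non-polyp tissue and polyps on day 112 of a protocol that combines the carcinogen azoxymethane (AOM) with DSS. The labels give neither age nor the cells in which the gene was deleted, and they do not say if tissue of several animals was pooled. Any p-value therefore measures the spread between these libraries.

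Interferon-gamma is made mainly by T cells and natural killer cells. It binds the receptor of Ifngr1 and Ifngr2, and its signal reaches target genes at the gamma-activated site (GAS). Type I interferons act through another receptor and mainly at the interferon-stimulated response element (ISRE). The GTPases defend cells against microbes that live in vacuoles and answer interferon-gamma strongly, but many of them also answer type I interferon, and Ido1 and Cxcl9 are usually taken as more particular to interferon-gamma.

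The promoters of the GTPases are shown because they carry both kinds of element. RefSeq promoters of build GRCm38.p6, 300 bases from 250 before to 50 after the start, were found for 8 of the 10 genes. They were searched on both strands for a GAS, spelled TTCNNNGAA, and an ISRE, taken as 2 blocks of GAAA with any 2 bases between them. Each of the 7 GTPases with a promoter entry held an ISRE, against 3.44% of 32851 promoters, and 4 of them (Gbp5, Gbp7, Irgm2 and Igtp) also held a GAS, against 8.30%. Both were present in 0.454% of all promoters. The 5 sequences below run 5′ to 3′ on the strand of the gene, with GAS and ISRE matches in capitals. Gbp2, with an ISRE alone, is at chr3:142620413-142620712 on the plus strand. Gbp5 is at chr3:142496684-142496983 and Gbp7 at chr3:142530086-142530385, both on the plus strand. Igtp is at chr11:58199306-58199605 and Irgm2 at chr11:58214727-58215026, both on the plus strand.
Gbp2: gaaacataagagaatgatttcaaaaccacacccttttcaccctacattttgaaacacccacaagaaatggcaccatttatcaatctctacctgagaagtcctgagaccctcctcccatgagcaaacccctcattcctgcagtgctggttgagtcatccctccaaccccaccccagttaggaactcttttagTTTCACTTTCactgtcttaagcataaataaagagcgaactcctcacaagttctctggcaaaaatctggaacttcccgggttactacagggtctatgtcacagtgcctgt
Gbp5: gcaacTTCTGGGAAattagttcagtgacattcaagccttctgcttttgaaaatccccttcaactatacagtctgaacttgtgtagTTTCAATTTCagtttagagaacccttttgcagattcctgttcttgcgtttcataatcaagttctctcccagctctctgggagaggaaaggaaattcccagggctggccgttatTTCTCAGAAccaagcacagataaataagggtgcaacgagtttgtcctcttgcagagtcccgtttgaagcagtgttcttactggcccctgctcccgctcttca
Gbp7: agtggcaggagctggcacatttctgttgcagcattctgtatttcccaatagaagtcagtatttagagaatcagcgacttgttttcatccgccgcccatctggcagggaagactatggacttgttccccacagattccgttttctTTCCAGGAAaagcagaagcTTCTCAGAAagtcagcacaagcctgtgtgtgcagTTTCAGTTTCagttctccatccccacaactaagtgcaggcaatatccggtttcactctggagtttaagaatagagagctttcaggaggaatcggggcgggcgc
Igtp: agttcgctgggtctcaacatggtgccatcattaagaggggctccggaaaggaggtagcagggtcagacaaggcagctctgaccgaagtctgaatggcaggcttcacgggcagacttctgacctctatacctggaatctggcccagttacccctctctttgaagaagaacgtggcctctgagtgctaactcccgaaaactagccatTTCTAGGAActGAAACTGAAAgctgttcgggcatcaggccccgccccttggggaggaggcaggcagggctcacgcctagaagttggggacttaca
Irgm2: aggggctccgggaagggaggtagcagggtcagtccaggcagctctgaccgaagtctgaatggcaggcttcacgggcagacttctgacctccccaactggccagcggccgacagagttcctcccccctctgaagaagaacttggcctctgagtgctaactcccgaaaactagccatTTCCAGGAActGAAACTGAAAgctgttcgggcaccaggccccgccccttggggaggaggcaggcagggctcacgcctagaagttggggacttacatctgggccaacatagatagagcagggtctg
In Gbp7 the GAS matches began 106 and 87 bases before the start and the ISRE 53 bases before it. In Igtp the GAS began 45 and the ISRE 34 bases before the start, and in Irgm2 they began 75 and 64 bases before it, so both genes carried the same pair of elements side by side. Gbp3 and Irgm1 each held 2 ISRE matches that overlap by their outer bases, and no GAS. Neither spelling was found in the window of Cxcl9. Among the type I list described below, 21 of 30 genes had an entry, of which 12 held an ISRE and 5 a GAS. A match to these letters describes the sequence and shows no binding.

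Before the interferon genes, the targeted gene was read in every library. The wild-type libraries read 2.96 TPM of Clec4a2 at steady state, 4.33 TPM on DSS, 2.74 TPM in non-polyp tissue and 3.68 TPM in polyps. It was listed at 0 in 3 knockout libraries and at 0.659 TPM in the one labelled as knockout at steady state, called the library labelled steady-state knockout here, which goes against that label in part. Colon epithelial markers such as Krt8 and Epcam were high in every library (summed list 8567 to 13743 TPM). Other libraries stood apart by tissue content. Smooth muscle markers summed to 594 TPM in knockout non-polyp tissue and 8243 TPM in wild-type non-polyp tissue, and the polyps held 618 TPM in wild type and 386 TPM in the knockout. Mast cell markers summed to 3575 TPM in knockout and 51.4 TPM in wild-type non-polyp tissue, and 2919 and 587 TPM in knockout and wild-type polyps, so the knockout non-polyp library was nearer to the polyps than to its wild-type counterpart. Markers of male accessory glands summed to between 3548 and 5744 TPM in the 4 steady-state and DSS libraries and to at most 14.4 TPM at day 112. Adipocyte markers summed to 65.4 TPM in steady-state wild type, against 946 TPM in its knockout counterpart. Depth, as aligned bases, was 2.70 to 3.35 gigabases.

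In what follows, a pair of TPM values gives wild type before knockout, and at steady state the second value is that of the library labelled steady-state knockout. The guanylate-binding proteins form a cluster on chromosome 3. Gbp2 (ENSMUSG00000028270, chr3:142620602-142638008 on GRCm38), a large GTPase that coats the vacuoles of intracellular parasites, read 45.4 and 58.3 TPM in untreated colon and 47.0 and 48.7 TPM on DSS. In non-polyp tissue it read 19.2 and 13.6 TPM, and in polyps 8.63 and 15.4 TPM. All 4 day 112 libraries were thus below all 4 steady-state and DSS libraries, as was the case for Gbp7 among the other members. Over all 16855 genes tested, 12.2% had that order. Gbp7 (ENSMUSG00000040253, chr3:142530342-142550149), which acts in the defence of macrophages, read 19.4 and 33.3 TPM at steady state, 13.6 and 12.3 TPM on DSS, 7.79 and 4.43 TPM in non-polyp tissue and 4.17 and 11.2 TPM in polyps.

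Gbp3 (ENSMUSG00000028268, chr3:142560026-142573209) read 14.8 and 35.7 TPM at steady state. Its other 6 libraries lay between 9.07 TPM in knockout non-polyp tissue and 15.5 TPM in wild-type DSS, so a single library stood far above the rest. Gbp5 (ENSMUSG00000105504, chr3:142493978-142522344), which promotes assembly of the NLRP3 inflammasome in macrophages, read 3.93 and 7.66 TPM at steady state, 5.16 and 1.09 TPM on DSS, 1.01 and 0.882 TPM in non-polyp tissue and 0.803 and 2.72 TPM in polyps. The order of the genotypes turned over between steady state and DSS for Gbp5. Gbp7 shares its strand and part of its span with the gene model Gm43802 (6.07 to 25.2 TPM), and Gbp2 has the close paralog Gbp2b (up to 53.8 TPM), so the split of reads within these pairs is uncertain.

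The immunity-related GTPases fall into regulators, which keep the family inactive on the cell's own membranes, and effectors, which disrupt vacuoles of parasites. Of the regulators, Irgm1 (ENSMUSG00000046879, chr11:48861968-48871683, minus strand) read 41.2 and 77.6 TPM in untreated colon and 41.9 and 28.7 TPM on DSS. It read 39.7 and 28.3 TPM in non-polyp tissue and 33.0 and 41.8 TPM in polyps. Wild type ranged from 33.0 to 41.9 TPM. The 3 knockout libraries at 0 for Clec4a2 ranged from 28.3 to 41.8 TPM, so the value of 77.6 TPM stood alone. Igtp (ENSMUSG00000078853, chr11:58199556-58207591), also called Irgm3, read 25.0 and 48.7 TPM at steady state, 23.9 and 13.1 TPM on DSS, 20.7 and 9.89 TPM in non-polyp tissue and 12.1 and 18.8 TPM in polyps.

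Irgm2 (ENSMUSG00000069874, chr11:58199618-58222782), the remaining regulator, read 19.6 and 39.4 TPM at steady state, 14.3 and 12.4 TPM on DSS, 9.94 and 10.5 TPM in non-polyp tissue and 9.50 and 15.6 TPM in polyps. As deposited, Irgm2 and Igtp overlap on the same strand, and the authors' assembly joined them to 1 locus in all 6 libraries that list such loci, so their sum is surer than their split. The sum of both annotated rows was 44.5 and 88.1 TPM at steady state, 38.2 and 25.5 TPM on DSS, 30.7 and 20.4 TPM in non-polyp tissue and 21.6 and 34.4 TPM in polyps. The knockout was thus higher at steady state and in polyps and lower on DSS and in non-polyp tissue by the sum as well. The effector Iigp1 (ENSMUSG00000054072, chromosome 18) read 6.42 and 10.7 TPM at steady state, 9.63 and 3.15 TPM on DSS, 4.17 and 3.84 TPM in non-polyp tissue and 2.76 and 4.95 TPM in polyps.

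Ido1 (ENSMUSG00000031551, chr8:24584136-24597009, minus strand), which encodes indoleamine 2,3-dioxygenase, the enzyme that opens the path from tryptophan to kynurenine, had another course. It read 3.45 and 6.54 TPM in untreated colon and 18.6 and 44.0 TPM on DSS. In non-polyp tissue it read 1.56 and 2.40 TPM and in polyps 1.30 and 5.13 TPM. Both DSS libraries were above all others, and the knockout was above wild type at each of the 4 stages. Taken singly, 63.0% of all genes tested were higher in the knockout at steady state, 43.6% on DSS and 63.1% in polyps. In non-polyp tissue 38.4% were lower. The share of all genes with either order of Ido1 was not counted. Cxcl9 (ENSMUSG00000029417, chr5:92321347-92328079, minus strand), a chemokine that draws T cells bearing Cxcr3, was low throughout. It read 1.54 and 2.63 TPM at steady state, 3.11 and 1.19 TPM on DSS, 1.45 and 2.40 TPM in non-polyp tissue and 1.73 and 2.66 TPM in polyps. Its whole range was 0.91 on the log2 scale, against 4.29 for Ido1.

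**Figure D1:**
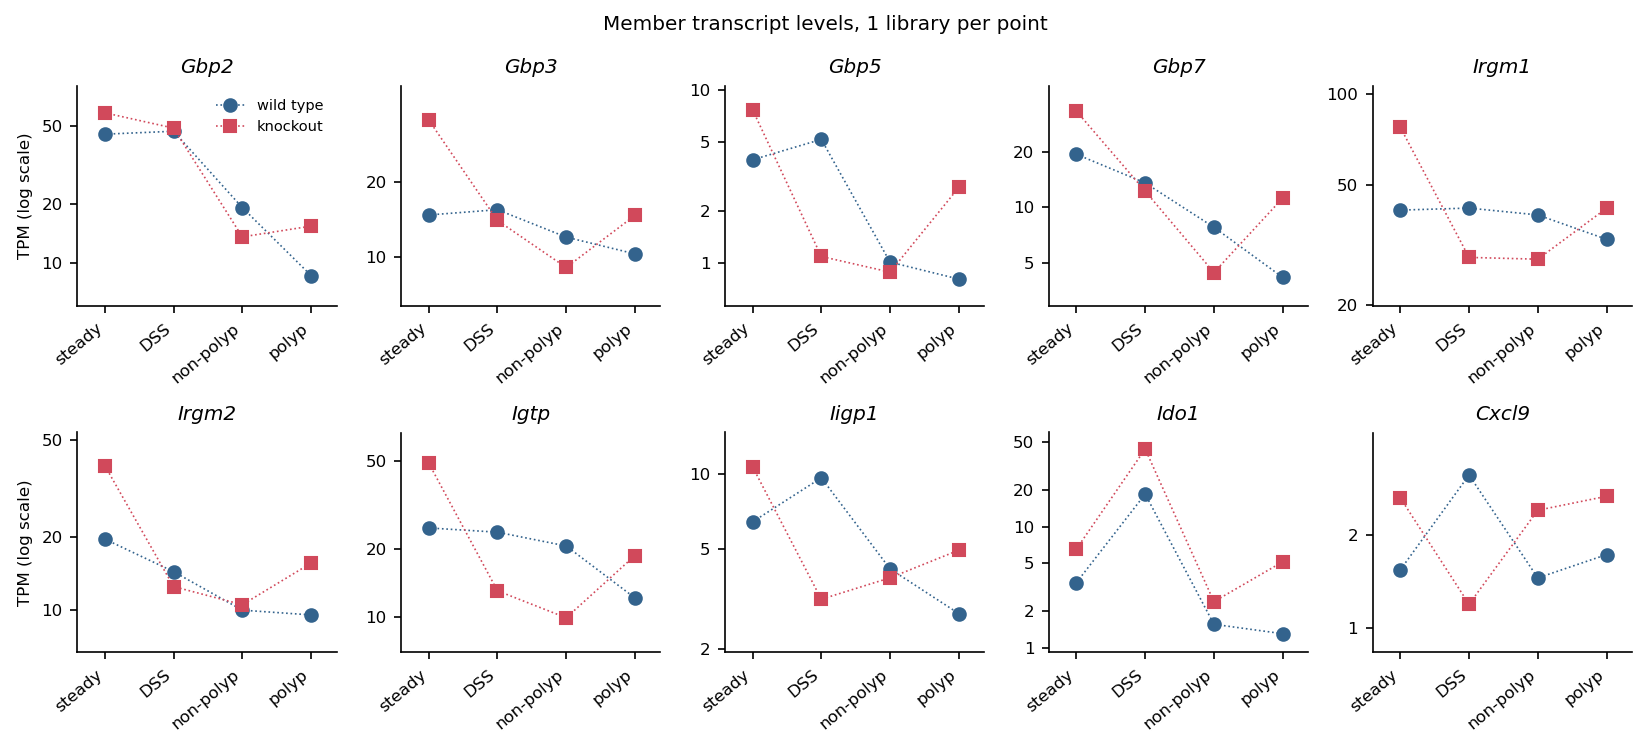
TPM of each of the 10 genes on a log axis at 4 stages, with 1 library per point, wild type as blue circles and knockout as red squares. Ido1 peaks on DSS in both genotypes (18.6 and 44.0 TPM), whereas Gbp2 and Gbp7 are lowest at day 112.

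All differences below are on the scale log2(TPM + 1), which understates changes of low genes. A gene is called at least 2-fold higher or lower where that difference reaches 1, for members and for all genes alike, and a member past 2-fold in TPM itself but not on this scale is named with its TPM ratio. The spread between libraries was estimated from the residuals of a model with stage and genotype. It was then moderated by limma, the program of the fits below, toward the spread of genes of similar level. This moderated spread was 0.32 (log2 SD) for Gbp2, 0.33 for Ido1 and 0.34 for Irgm2, and was widest for Gbp5, at 0.65. When the 8 levels of a gene were put in order, all 7 steps between neighbours lay within the SD of a difference for Gbp5, Iigp1 and Cxcl9. For Gbp3, Irgm1, Irgm2 and Igtp, 6 of 7 steps did, and for Gbp2, Gbp7 and Ido1, 5 of 7 did. Steps between neighbours divide the whole range, which was 2.26 for Gbp5 and 1.94 for Irgm2. The counts therefore do not show that the levels were alike. The largest step of Ido1, 1.38, separated wild-type DSS from the library labelled steady-state knockout.

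The genotype comparison asked whether loss of DCIR altered these levels across stages. None of the 10 genes passed an adjusted p of 0.05 in limma, nor did any of 16855 genes (0.0% called). Ido1 had the largest estimate of the 10, 0.95 ± 0.24 (SE, 8 libraries), higher in the knockout at 4 of 4 stages, with an unadjusted p of 0.00725 and an adjusted p of 0.705 in limma. It was the only member with an unadjusted p below 0.05, a level reached by 4.37% of all genes. The other 9 estimates lay between -0.073 for Igtp and 0.38 for Irgm2. Their wild-type and knockout ranges overlapped, as did those of Ido1. The median over the 10 genes was 0.15, beside 0.10 over all genes, and 8 of 10 were above 0, as were 64.5% of all genes. With median-of-ratios rescaling, or with FPKM in place of TPM, 6 of 10 were above 0, and the rescaling moved the median of all genes from 0.10 to 0.002. Without both steady-state libraries, or without either of them, 4 of 10 were above 0 and the median of the members was -0.0067. Without either polyp library 4 of 10 were above 0 and the median was -0.024. Without both DSS libraries, or without either, all 10 were above 0 and the median was 0.44, and without both non-polyp libraries 9 were above 0 and the median was 0.31. The estimate for Ido1 kept between 0.74 and 1.16 in every alternative fit, none of which read the assembled loci described below.

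Since the direction differed between stages, single pairs of libraries are given with no test. At steady state all 10 genes were higher in the library labelled steady-state knockout, by 0.36 (Gbp2) to 1.22 (Gbp3), with a median of 0.79 beside 0.092 over all genes, of which 63.0% were above 0. Gbp3 was at least 2-fold higher, where 3.59% of genes were, and Irgm2 (0.97) had a TPM ratio of 2.01. Type I genes were higher as well, 28 of 29, with the same median of 0.79. Among them Isg15, a ubiquitin-like modifier, stood at 117 and 294 TPM, and Irf7, the transcription factor that amplifies the type I response, at 145 and 241 TPM. Antigen presentation genes known to answer interferon-gamma were higher in 16 of 17, with a median of 0.57. Immune cell markers were higher in the same library. Markers of T and NK cells summed to 89.2 TPM there, against 48.3 TPM in wild type, and those of macrophages and monocytes to 1606 TPM against 1089 TPM. The part of these cells, of the adipocyte and gland markers and of the residual Clec4a2 in the difference was not tested. In bulk tissue, fewer cells of a type and less RNA per cell cannot be told apart.

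On DSS, 8 of the 10 genes were lower in the knockout and the median was -0.36, beside -0.046 over all genes, of which 56.1% were lower. Gbp5 differed by -1.56 and Iigp1 by -1.36, and these were the members at least 2-fold lower, where 2.80% of all genes were. Cxcl9 differed by -0.91, with a TPM ratio of 0.384, Igtp by -0.82 and Irgm1 by -0.53. Gbp2 differed by 0.052. Ido1 went the other way, at 1.20 or a TPM ratio of 2.36, and was the member at least 2-fold higher, where 1.86% of all genes were. In the same pair 8 of 8 other interferon-inducible GTPases were lower (median -0.66), among them Gbp4 at 11.4 and 4.54 TPM and Ifi47 at 19.7 and 12.0 TPM. Antigen presentation genes were lower in 16 of 17 (median -0.31), and type I genes in 17 of 29 (median -0.12). All 12 macrophage and monocyte markers were lower in the knockout (median -0.56), as were all 7 tested dendritic cell markers (median -0.53), while T and NK markers summed to 67.4 and 65.8 TPM. Neutrophil markers summed to 238 TPM in wild type and 5.14 TPM in the knockout. Gland markers differed too, with Svs5 at 0.540 and 662 TPM and Msmb at 327 and 0.174 TPM. Their part in the result for the GTPases or for Ido1 was not tested.

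In non-polyp tissue 7 of 10 were lower in the knockout, with a median of -0.23 beside 0.21 over all genes, of which 38.4% were lower. Igtp was lowest, at -0.997 and a TPM ratio of 0.477, and Cxcl9 (0.47), Ido1 (0.41) and Irgm2 (0.068) were above 0, of which Irgm2 was below 0 with median-of-ratios rescaling. None of the 10 reached a difference of 1 in either direction on the log2(TPM + 1) scale in a pair where 24.6% of all genes did, with the smooth muscle and mast cell contrast given above. Type I genes were lower in 20 of 29 (median -0.40).

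In polyps all 10 were higher in the knockout, by 0.33 (Irgm1) to 1.41 (Ido1), with a median of 0.66 beside 0.13 over all genes, of which 63.1% were higher. Ido1, Gbp7 (1.24) and Gbp5 (1.05) were at least 2-fold higher, where 3.67% of all genes were. Antigen presentation genes did not share that order, with 8 of 17 higher and a median of -0.036. Type I genes were higher in 23 of 29, with a median of 0.33. Nlrc5, the activator of MHC class I genes, stood at 0.981 and 5.84 TPM in this pair and was picked out after its values were seen. Mast cell markers summed to 587 and 2919 TPM and T and NK markers to 46.5 and 62.0 TPM, and their part was not tested. The genes within the T and NK sum were mixed. Gzmb stood at 5.96 and 15.6 TPM and Trac at 3.22 and 6.49 TPM. Cd3e, at 4.50 and 3.23 TPM, and Ccl5, at 8.03 and 6.93 TPM, were lower in the knockout.

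**Figure D2:**
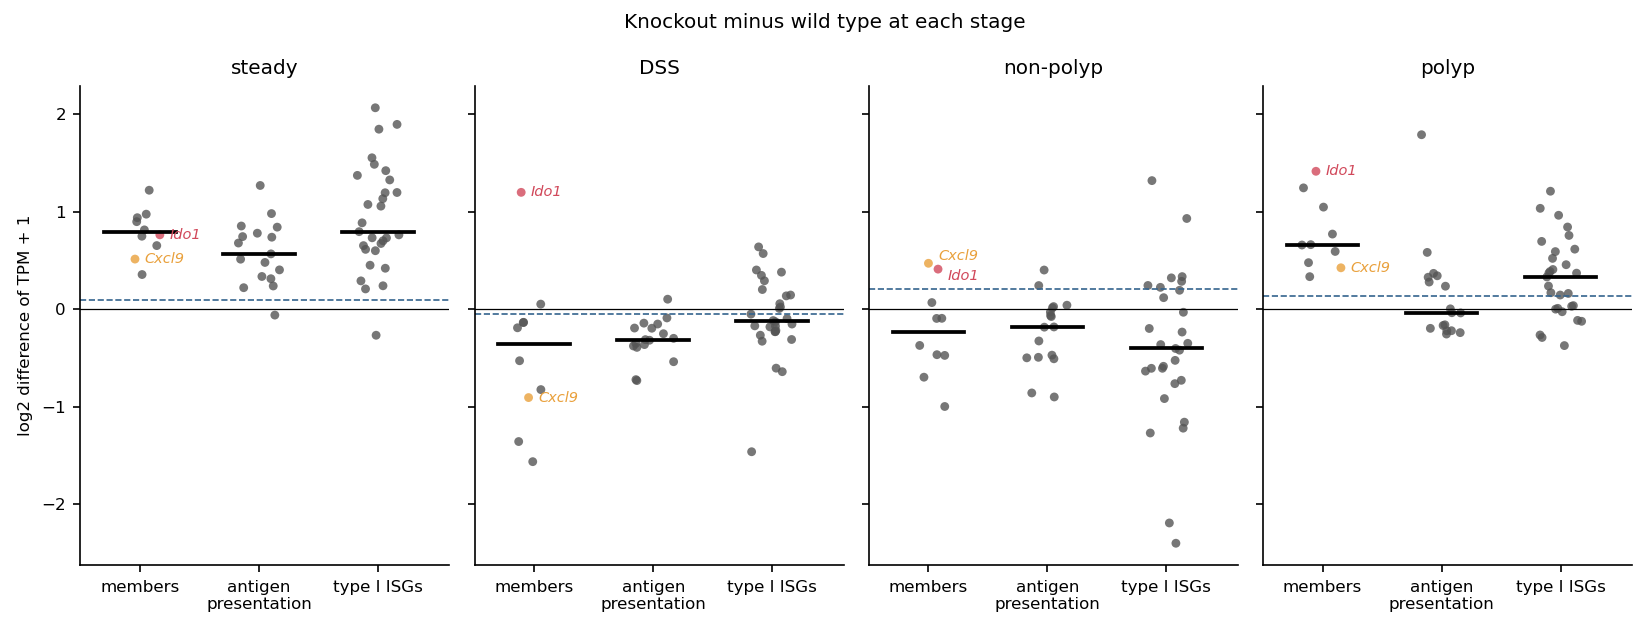
Knockout minus wild type in log2(TPM + 1) at each stage for the 10 members, 17 antigen presentation genes and 29 type I interferon-stimulated genes (ISGs), with 1 point per gene, black bars at list medians and a dashed line at the median of all genes. The members lie above 0 at steady state and in polyps (medians 0.79 and 0.66), and on DSS Ido1 lies apart from the rest at 1.20.

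The polyp differences of Gbp5 and Ido1 depend on which rows are read. In 6 libraries the authors also list loci assembled from the same reads. For Gbp5 the assembled loci of the polyps read 6.10 and 3.24 TPM, which turns over the order of the annotated rows (0.803 and 2.72 TPM). The Gbp5 locus ran from 142506840 to 142522148 in wild-type polyps and from 142496900 to 142522344 in knockout polyps. These values therefore do not cover the same stretch of the gene. For Ido1 the polyp loci stood at 3.68 and 5.22 TPM, a smaller gap than that between 1.30 and 5.13 TPM. With loci in place of annotated rows 9 of 10 members were higher in knockout polyps, where the joined locus of Igtp and Irgm2 counts for each gene. In non-polyp tissue the Ido1 loci read 2.52 and 2.45 TPM, so the order there turned over as well, by little. The wild-type non-polyp locus spanned part of the Ido1 gene, from 24584161 to 24587826. At steady state the loci of Ido1 (3.45 and 6.83 TPM) and of Gbp5 (4.13 and 7.94 TPM) were close to the annotated rows. The joined locus of Igtp and Irgm2 kept the order of the genotypes at all 3 stages that list loci.

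**Figure D3:**
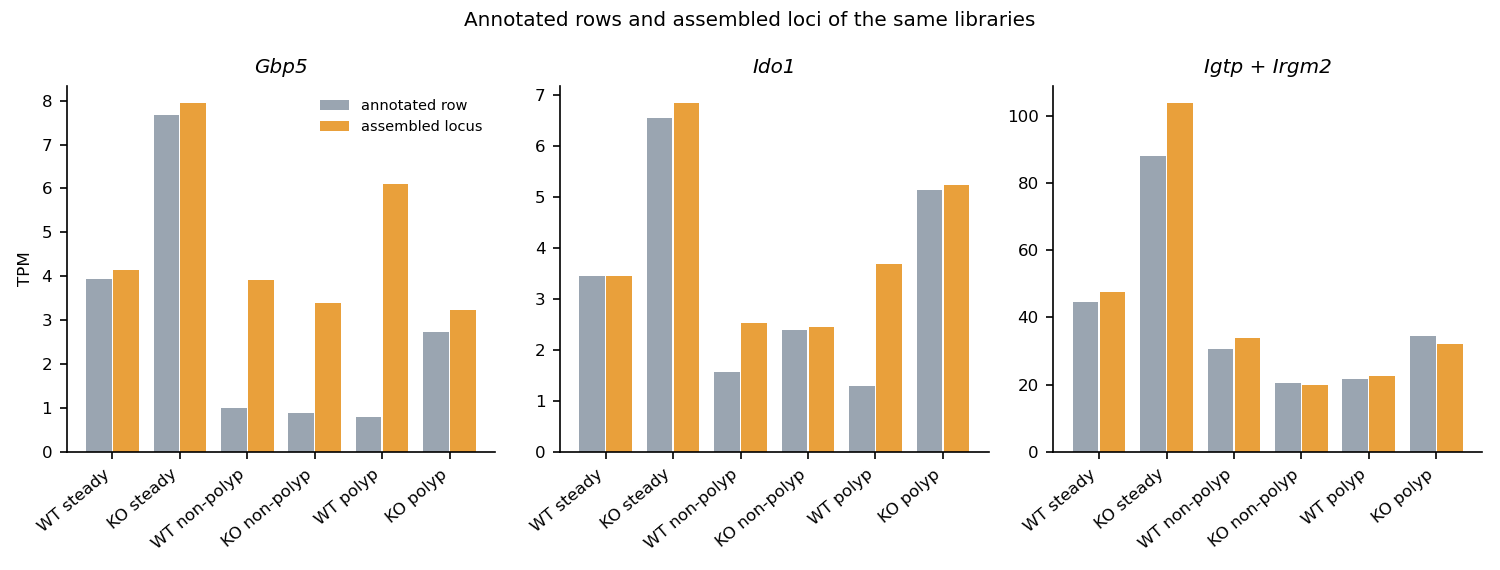
TPM of the annotated row (grey) and of the assembled locus on the same strand (orange) for Gbp5, Ido1 and the sum of Igtp and Irgm2 in the 6 libraries that list assembled loci, with 1 library per pair of bars. In wild-type polyps the Gbp5 locus, which spans part of the gene, reaches 6.10 TPM where the annotated row holds 0.803 TPM.

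The DSS comparison asked how colitis altered the genes relative to untreated colon. None of the 10 passed an adjusted p of 0.05 in limma, and neither did any other gene (0.0% called). Ido1 had an estimate of 2.36 ± 0.33 (SE, 8 libraries), rank 5 of 16855 by unadjusted p (0.000424), with an adjusted p of 0.777 in limma, and was higher on DSS in both genotypes. Irgm2 had an estimate of -1.004 ± 0.34, with an unadjusted p of 0.0245 and an adjusted p of 0.879 in limma. These were the 2 members with an unadjusted p below 0.05, a level that 5.36% of all genes reached. The estimate of Ido1 kept between 2.19 and 2.57 in every alternative run. With all 8 libraries its adjusted p in limma ranged from 0.641 with no filter on low values to 0.901 with FPKM. It was 0.214 without both non-polyp libraries, but rose when either steady-state or either polyp library was left out. In all 9 of 10 estimates were below 0, as were 64.7% over all genes, and the median of the 10 was -0.65, beside -0.12 over all genes. With median-of-ratios rescaling 7 of 10 were below 0. The median was -0.079 without the library labelled steady-state knockout, -0.16 without knockout DSS, -1.15 without wild-type DSS and -1.23 without steady-state wild type, so it rests on single libraries.

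Within wild type the 10 genes had a median difference of 0.057 between DSS and steady state, with 7 of 10 above 0, as were 44.8% of all genes. Ido1 was 2.14 higher and the member at least 2-fold higher, where 2.73% of all genes were. Cxcl9 (0.69, with a TPM ratio of 2.02), Iigp1 (0.52) and Gbp5 (0.32) followed, and Gbp7 (-0.49) and Irgm2 (-0.42) were lower. Type I genes were lower in 25 of 29 (median -0.54), and Isg15 stood at 58.7 TPM on DSS against 117 TPM. Antigen presentation genes were higher in 15 of 17 (median 0.35), and the MHC class II genes H2-Aa and Cd74 stood at 412 and 1417 TPM on DSS against 220 and 848 TPM. In wild type, then, Ido1, Cxcl9 and antigen presentation genes were higher while most type I genes were lower. The limma estimate of Cxcl9 over both genotypes was -0.015. In the wild-type pair the GTPases were mixed, and Gbp2 (0.049), Gbp3 (0.066), Irgm1 (0.022) and Igtp (-0.061) were nearly level. The difference between the lists was not tested, and T and NK markers (67.4 against 48.3 TPM) and macrophage markers (1558 against 1089 TPM) were higher in the same pair.

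Within the knockout 9 of 10 genes were lower on DSS, with a median of -1.39 beside -0.20 over all genes, of which 67.6% were lower, and 7 of them were at least 2-fold lower, where 7.42% of all genes were. Gbp5 (-2.05) and Igtp (-1.82) differed most, and Cxcl9 (-0.72) had a TPM ratio of 0.455. Ido1 alone was higher, by 2.58, and 1.76% of all genes were at least 2-fold higher. Type I genes were lower in 29 of 29 (median -1.56) and antigen presentation genes in 17 of 17 (median -0.42). Markers of other cells were lower in the same pair, with 11 of 12 for macrophages and monocytes (summed 1158 TPM on DSS against 1606 TPM), 10 of 10 for T and NK cells (65.8 against 89.2 TPM), 6 of 6 for fibroblasts (821 against 1682 TPM) and 5 of 5 for adipocytes (242 against 946 TPM), and their part was not tested. This pair starts from the library labelled steady-state knockout, in which all 8 GTPases were at their highest. The knockout pairs that share it cannot be read as separate evidence.

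**Figure D4:**
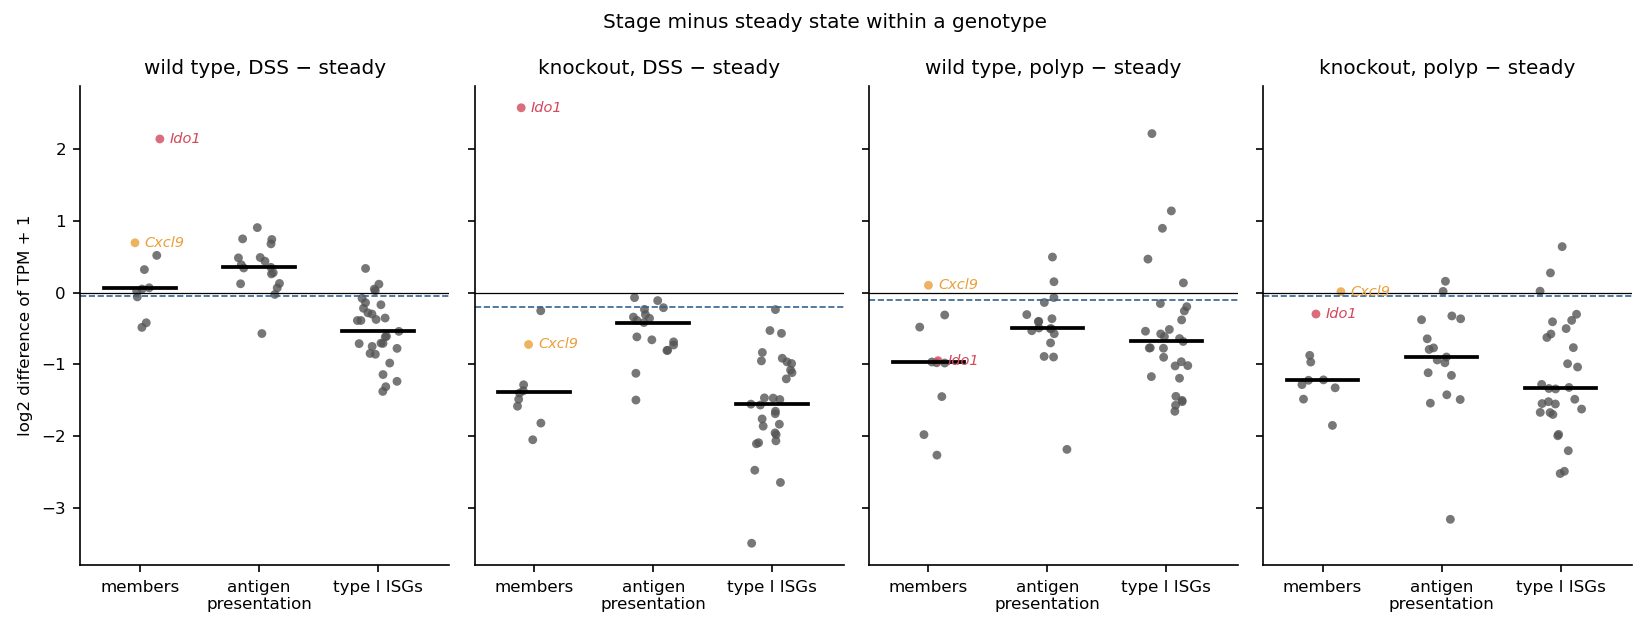
Stage minus steady state in log2(TPM + 1) within each genotype for the same 3 lists, with 1 point per gene, black bars at list medians and a dashed line at the median of all genes. On DSS Ido1 lies at 2.14 in wild type and 2.58 in the knockout while the members' medians are 0.057 and -1.39.

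The balance within the list restates the same TPM values as shares and ratios and is not separate evidence. At steady state Ido1 made up 1.91% of the summed TPM of the 10 genes in wild type and 2.04% in the library labelled steady-state knockout. On DSS it made up 9.67% in wild type and 24.6% in the knockout. In non-polyp tissue the shares were 1.32% and 2.81%, and in polyps 1.54% and 3.85%. The ratio of Ido1 to Cxcl9 was between 0.754 and 2.49 in 6 libraries, but 5.99 in the wild-type DSS library. It was 36.8 in its knockout counterpart, where Cxcl9 read 1.19 TPM. The summed TPM of the 8 GTPases did not share the DSS peak. It was 176 and 311 TPM at steady state, 171 and 134 TPM on DSS, 115 and 80.5 TPM in non-polyp tissue and 81.3 and 125 TPM in polyps. The GTPase sum was highest in the library labelled steady-state knockout.

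The day 112 comparison set non-polyp tissue against steady state. All 10 estimates were below 0, as were 57.6% over all genes, with a median of -1.15 beside -0.095 over all genes. None passed an adjusted p of 0.05 in limma, where 0.326% of all genes did. Gbp2 was nearest, at -1.61 ± 0.32 (SE, 8 libraries; adjusted p = 0.111 in limma), then Irgm2 at -1.36 ± 0.34 (adjusted p = 0.152) and Gbp7 at -1.94 ± 0.49 (adjusted p = 0.159). All 10 genes were lower in wild type and all 10 in the knockout, where 59.9% and 52.5% of all genes were. With median-of-ratios rescaling 1 of 10 estimates was above 0, and in wild type 2 of 10 genes were higher in non-polyp tissue than in untreated colon. In all, 6 members had an unadjusted p below 0.05, where 16.5% of all genes did. Cxcl9 was nearly level (-0.073). Other interferon lists had the same direction, with type I genes below 0 in 26 of 29 (median -1.08) and antigen presentation genes in 17 of 17 (median -0.66), so the lists were not told apart by direction here. Without wild-type non-polyp tissue, Gbp2 (-2.04, adjusted p = 0.0156 in limma) and Gbp7 (-2.59, adjusted p = 0.0255) passed, but so did 2238 of 16855 genes against 55 with all libraries. The median of the 10 was -1.71 without steady-state wild type and -0.74 without knockout non-polyp tissue. The gland markers, high at steady state and near 0 at day 112, moved with this contrast, and their part was not tested. B and plasma cell markers moved with it as well, with 7 of 8 estimates below 0 and a median of -1.83, as did T and NK markers, with 7 of 10 below 0 and a median of -0.69. Erythroid markers went the other way in 5 of 5 (median 2.52), of which Hba-a1, a globin chain, passed (adjusted p = 0.0438 in limma), and neutrophil markers in 6 of 6 (median 2.50), none of which passed. Their part was not tested either.

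Polyps were then set against non-polyp tissue. None of the 10 passed an adjusted p of 0.05 in limma (lowest adjusted p 0.858), none had an unadjusted p below 0.05, where 2.94% of all genes did, and 0.0% of all genes were called. The estimates ran from -0.45 (Gbp2) to 0.41 (Gbp5), with a median of 0.17 beside 0.037 over all genes, and 8 of 10 were above 0, as were 54.1% of all genes. The genotypes differed in direction. In wild type 9 of 10 genes were lower in the polyp (median -0.23), as were 45.8% of all genes, and Gbp2, at -1.07, was the member at least 2-fold lower, where 9.80% of all genes were. In the knockout all 10 were higher in the polyp (median 0.59), as were 50.7% of all genes, by 0.11 (Cxcl9) to 1.17 (Gbp7), and Gbp7 was the member at least 2-fold higher, where 1.31% of all genes were. Gbp5 (0.98) and Ido1 (0.85) had TPM ratios of 3.09 and 2.14 in that pair. With assembled loci 3 of 10 were higher in the wild-type polyp and 8 of 10 in the knockout polyp. In these counts the joined locus of Igtp and Irgm2 stands for each gene, and the wild-type non-polyp locus of Gbp2 also holds Gbp2b. Whether the genotypes differ here was not tested, since it would need replicates. Without knockout non-polyp tissue, which resembled a polyp in its markers, 3 of 10 estimates were above 0 and 1529 genes were called.

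Genes around the list were read from the signal to its products. Ifng, which encodes interferon-gamma, was listed at 0 in 6 libraries and stood at 0.270 TPM in wild-type DSS and 0.154 TPM in wild-type non-polyp tissue. Ifnb1, Ifna1, Ifna2 and Ifna4, of type I interferon, and Ifnl2 and Ifnl3, of type III, were listed at 0 in all 8 libraries. Ifne and Ifnk, also of type I, were each listed at 0 in 6 libraries and were highest in knockout polyps, at 0.237 and 0.102 TPM. The ligands therefore gave almost no signal of either kind. Ifngr1 and Ifngr2, the receptor subunits, ran from 109 to 329 TPM and from 65.9 to 120 TPM. Irf1, a transcription factor induced by interferon-gamma, was highest on DSS (161 and 151 TPM), against 65.8 to 137 TPM in the other libraries. Of 10 receptor and signalling genes none passed an adjusted p of 0.05 in limma in any of the 4 contrasts, nor did any of 17 antigen presentation genes or 29 tested type I genes.

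Cxcl10 and Cxcl11 bind the same receptor as Cxcl9. Cxcl10 read 3.40 and 7.20 TPM at steady state, 6.43 and 2.95 TPM on DSS, 2.98 and 5.13 TPM in non-polyp tissue and 5.54 and 8.24 TPM in polyps. The genotypes had the same order as for Cxcl9 at all 4 stages, with the knockout lower on DSS and higher elsewhere. Cxcl11 stood at 2.43 TPM in wild-type DSS and at most 0.924 TPM in any other library, and Cxcr3 ran from 0.235 to 1.40 TPM. Ciita, the activator of MHC class II genes, stood at 6.64 to 14.1 TPM at steady state and on DSS and at 0.677 to 0.987 TPM at day 112, a lower level in all 4 later libraries. Among genes of tryptophan use, Kyat1, a kynurenine aminotransferase, stood at 25.1 and 48.5 TPM at steady state and at 25.1 and 47.0 TPM on DSS, so it was level between those stages. Wars, the tryptophanyl-tRNA synthetase that interferon-gamma induces, stood at 94.8 and 120 TPM and then at 133 and 102 TPM. Of the 9 such genes tested, which include Ido1, Wars and the receptor gene Ahr, 6 were higher in the knockout on DSS, where 43.6% of all genes were.

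Likeness of profile was measured as the root mean square distance between log2(TPM + 1) values centred over the 8 libraries. The closest members were Gbp3 and Irgm2, at 0.20, and the farthest were Ido1 and Igtp, at 1.48. From the mean profile of the 10 genes, Gbp3 (0.23) ranked 27 of 16855 genes, Iigp1 104, Irgm2 114 and Igtp 324. Gbp7 ranked 555, Irgm1 574, Gbp5 751 and Gbp2 3779. Cxcl9 ranked 4771 and Ido1 15722, although each member is part of that mean. The nearest genes outside the list were Man1c1 (0.13), Rasgrp1 (0.15), Dnase1l3 (0.17), Phf19 (0.19) and Arhgef18 (0.20), then Ctsw, Trim21, Zfp382, Gm43802 and Parp14. Gm43802 shares reads with Gbp7. Over 8 libraries such distances describe these samples alone.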

How the data were processed

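Total RNA from frozen colon and polyps was sequenced from NEBNext Ultra libraries, per the labels' protocols. The authors deposited TPM and FPKM per gene and coverage, a mean signal per base, per the file headers. StringTie and GRCm38 (mm10) come from the submitters' processing notes; the sources used here name neither the aligner nor the annotation release. In 6 files the deposited TPM column also lists assembled loci, which fill the TPM scale on their own and so repeat the same reads, so annotated rows alone were used. Read counts were not given, and no counting interval can be set. Of 54715 genes listed, 13 with several rows, 10 whose TPM to FPKM ratio departed by over 0.1% and those not in all 8 libraries were left out.

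A model with stage and genotype was fitted by limma 3.58.1 (R 4.3.3) with intensity trend to log2(TPM + 1) of the 16855 genes whose mean TPM reached 1, leaving 3 residual degrees of freedom. Moderation of each gene's spread toward that of genes of similar level brought the total to a median of 5.92 degrees of freedom. Benjamini-Hochberg adjustment ran over all genes tested. The residual spread includes any dependence of the genotype difference on stage. The additive fit assumes each library varies like the others. Single pairs have no replicates and no test. The members and lists were chosen with earlier results of these data known. Named genes were the 10 members, Clec4a2, fixed pathway genes, the 6 highest genes by mean TPM of each list at most, and the 10 nearest profiles. Other genes were named after their values were seen. Alternatives changed the pseudocount to 0.1, the filter, the scaling, the trend, the unit, and the libraries.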

Additional observations from a re-analysis of the deposited data

Results flagged for a closer look

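For 6 of the 10 genes the knockout stood above wild type by at least 0.5 (log2) at 1 stage and below it by at least 0.5 at another. Over all 16855 genes tested, 16.8% met the same condition. With median-of-ratios rescaling 7 members met it, where 16.3% of all genes did, with Gbp2 and Gbp3 added and Cxcl9 lost. With FPKM in place of TPM 6 met it, where 12.5% did, with Gbp2 added and Cxcl9 lost. The differences between stages were not tested, since each stage holds 1 library per genotype. For Gbp5 the polyp order turned over with the assembled locus, which in wild type spanned part of the gene. The gap between the highest and the lowest stage was 2.61 for Gbp5, from 1.05 in polyps to -1.56 on DSS. It was 2.02 for Iigp1, from 0.66 in polyps to -1.36 on DSS. For Gbp7 it was 1.94, from 1.24 in polyps to -0.70 in non-polyp tissue, and for Igtp 1.93, from 0.94 at steady state to -0.997 in non-polyp tissue. For Irgm1 it was 1.42, from 0.90 at steady state to -0.53 on DSS. Cxcl9 likewise reached 1.42, from 0.51 at steady state to -0.91 on DSS, at levels of at most 3.11 TPM.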

How the results depend on the processing

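The estimates for Ido1 kept their direction for genotype and for DSS in every alternative fit. Assembled loci were not fitted, and with them the order of the genotypes for Ido1 turned over in non-polyp tissue, by little. The median of the members for DSS minus steady state, -0.65 with all libraries, ranged from -1.23 to -0.079 when each library was left out in turn. For day 112 non-polyp minus steady state, -1.15 with all libraries, it ranged from -1.71 without steady-state wild type to -0.74 without knockout non-polyp tissue. In that contrast the members past an adjusted p of 0.05 numbered 0 with all libraries and ranged from 0 to 2 when each was left out. The 2 were Gbp2 (-2.04) and Gbp7 (-2.59), without wild-type non-polyp tissue, where 2238 genes were called against 55. With no filter on low values that contrast called 13 genes of 32649. Of the remaining values recomputed, 165 medians and counts for the contrasts and single pairs were classed as unchanged. A median was so classed if it moved by less than the spread, even where its sign turned over. The genotype median of the members turned over in this way without the steady-state libraries and without either polyp library. For single genes, 121 estimates kept their direction and side of the threshold. No paired analysis was possible because the labels give no replicate numbers and each group holds 1 library. Adding assembled loci to the annotated rows was not run, since it would count the same reads again, and replacing them was chosen after seeing the data.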
